A study of Mus musculus with 2 samples.

Results

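Most mouse genes named Cd followed by a number encode cell surface antigens, and 17 of the 100 coding genes with such a name had at least 1 binding peak of FLAG-tagged HLF (hepatic leukemia factor, a PAR bZIP transcription factor). The members were taken by symbol from the RefSeq protein-coding genes of mm10. Each peak went to the coding gene that held its centre. A peak outside all of them went to the one whose end was nearest, up to 100 kb away. By this rule 27 of the 3153 peaks fell to Cd genes, of 2994 peaks given to any coding gene. The genes with a peak were chosen by the measured positions of the peaks, so the counts and distances below describe the list and carry no test.

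The peaks come from chromatin immunoprecipitation with an anti-FLAG antibody and sequencing, with 1 library for each arm. Wild-type mouse LSK cells, which are bone marrow stem and progenitor cells without lineage markers and with Sca-1 and c-Kit on their surface, received either the pMX-GFP control virus (GFP-ctrl) or the pMX-3xFLAG-Hlf/Hlf-IRES-GFP virus (FLAG-HLF). Both arms started from 80000 cells and spent 5 days in basal OP9 medium with SCF at 50 ng/ml, IL-7 and Flt3L at 10 ng/ml each and IL-3 at 5 ng/ml. Only the FLAG-HLF peak list was analysed here, so the arms were not compared, and no value has a replicate. HLF came from a retrovirus and not from its own gene. The sources used here do not say whether infected cells were sorted before the chromatin was taken, or give the sex or age of the mice. The list has no read counts or peak heights, so its depth is unknown and a gene without a peak is one with none listed. The surface markers of the cells could not be checked by level, since no expression was measured. Of the genes of the LSK gate, Kit had 1 peak, 74.3 kb outside the gene, and Ly6a, which encodes Sca-1, had 0, with the closest peak 63.9 kb away.

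CD numbers are given to surface molecules by the antibodies that recognise them, so these genes share a naming scheme and not a protein family. They include receptors and ligands of the immunoglobulin, tetraspanin, C-type lectin, TNF receptor and Siglec families. Several are used to sort blood progenitors, among them CD34, CD48, CD9, CD27 and CD93. PAR bZIP factors bind as dimers to a palindromic DNA site, TTACGTAA, and to close variants of it.

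One member peak could be read as sequence in part. The peak inside Cd9 at chr6:125481760-125482159 (mm10, 1-based) wholly contained a 300-base window around a start site of Gm28809, a long noncoding RNA gene on the strand opposite to Cd9. This window (chr6:125481824-125482123, plus strand, from RefSeq on GRCm38.p6) is shown because it is the part of a Cd-gene peak for which sequence was used here.
Gm28809 window in the Cd9 peak: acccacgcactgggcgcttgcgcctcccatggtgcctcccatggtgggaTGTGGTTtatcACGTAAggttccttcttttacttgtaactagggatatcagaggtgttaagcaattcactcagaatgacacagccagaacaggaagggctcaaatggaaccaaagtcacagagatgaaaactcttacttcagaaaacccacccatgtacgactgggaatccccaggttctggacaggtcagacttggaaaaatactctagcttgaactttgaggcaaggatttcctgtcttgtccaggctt
The capitals mark TGTGGTT, a word bound by RUNX factors, and ACGTAA, the last 6 bases of the PAR bZIP palindrome. The stretch TCACGTAA, which begins at base 59 of the window, lay 74 bases from the peak centre and had 1 mismatch to TTACGTAA.

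The 11 words searched on both strands in such 300-base windows were TTACGTAA, TTATGTAA and TTGCGTAA for PAR bZIP factors, TTGCGCAA for C/EBP factors, TGACTCA for AP-1, TGACGTCA for CREB, CACGTG for E-box factors, AGATAA for GATA factors, TGTGGTT for RUNX, GAGGAAGT for PU.1 and GGAAGT for ETS factors. GGAAGT also lies within GAGGAAGT. TGTGGTT was the only one of these words in the Cd9 window, and 5.27% of all 32851 windows in the table hold it. The words ACGTAA and TCACGTAA were chosen after the Cd9 window had been read, and 2.72% and 0.18% of all windows hold them. A stretch with at most 1 mismatch to TTACGTAA stood in 3.90% of all windows. Across the whole list, 62 windows of 61 genes lay wholly inside a peak, and 27.4% of them (17 windows) had such a stretch. ACGTAA was in 11.3% of these (7 of 62) and TCACGTAA in 4.84% (3 of 62), counts that include the Cd9 window itself. One of the 3 PAR bZIP words, without a mismatch, stood in 17.7% of the windows inside peaks (11 of 62) and in 1.22% of all windows. The palindrome TTACGTAA itself was in 1 of the 62. The C/EBP word, which has 1 mismatch to TTGCGTAA, was in 4.84% of the windows inside peaks (3 of 62) and in 0.18% of all. In the same comparison the AP-1 word stood at 8.06% against 5.20%, the E-box word at 11.3% against 7.15% and the RUNX word at 8.06% against 5.27%. The PU.1 word stood at 4.84% against 3.20% and the ETS word at 33.9% against 23.8%. The GATA word stood at 11.3% against 11.2% and the CREB word at 1.61% against 1.79%. None of these differences was tested. A match of letters is a description and does not show a bound site.

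With 17 of 100 genes, 17.0% of the Cd genes had a peak, against 11.1% of the 21900 coding genes (2420 genes). There were 6 members with 2 or more peaks (6.0%, against 2.06% of coding genes) and 3 with 3 or more (3.0%, against 0.443%). Cd9 had 4 peaks, Cd47 and Cd84 had 3 each, Cd69, Cd93 and Cd300lb had 2 each, and the other 11 genes had 1. Cd genes lie partly in clusters of related neighbours, so they are not independent of each other. The 17 genes had a median length of 24.0 kb, against 14.7 kb for the 83 without a peak. Over all coding genes the same medians were 45.9 and 15.3 kb. For comparison by the same rule, 9 of the 33 Clec genes (27.3%), which encode C-type lectins, and 17 of the 83 Rnf genes (20.5%), which encode RING finger proteins, had a peak. By this rule the share of Cd genes was thus above that of all coding genes and below those of both other name families. None of these differences was tested. With noncoding genes in the assignment, 10 of the 100 Cd genes had a peak, against 8.78% of coding genes, so the Cd share then lay near theirs. The Cd genes with 2 or more peaks then fell from 6 to 2, and Cd9, Cd47 and Cd69 had none. The matching share of all coding genes with 2 or more peaks was not counted for that assignment.

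The 27 peaks lay on 10 chromosomes and mostly away from gene ends. Of the 27, 11 had their centre inside the gene (40.7%, against 58.2% of the peaks given to any coding gene), and 16 lay outside. Of the outside peaks, 6 were within 10 kb of the gene, 5 at 10 to 20 kb and 5 farther. The distance to the nearest gene end ran from 0.586 to 69.8 kb with a median of 11.9 kb, close to the 12.8 kb of all peaks given to a coding gene. Only 2 of the 27 (7.41%, against 11.2% of all given peaks) were within 1 kb of a gene end, at Cd27 and Cd84. The member peak nearest to the limit of 100 kb from inside was one 69.8 kb from Cd47. The nearest beyond it were 2 peaks at 118.4 and 143.7 kb from Cd24a, which were given to no gene. Cd24a encodes a small glycoprotein anchored in the membrane.

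**Figure D1:**
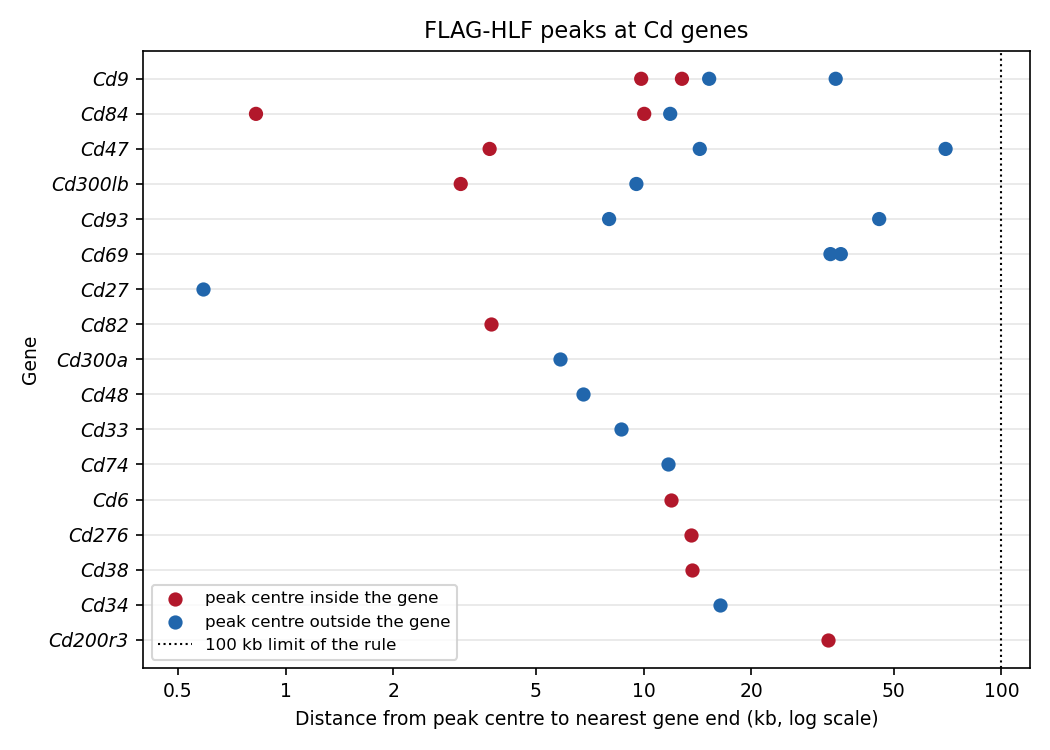
Distance in kb (log scale) from each of the 27 peak centres to the nearest end of its Cd gene, with 1 row per gene and 1 point per peak, red for centres inside and blue for centres outside the gene. Most points lie beyond 3 kb, Cd27 (0.586 kb) and Cd84 (0.826 kb) have the closest peaks, and 1 peak of Cd47 lies at 69.8 kb.

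Start sites and strand were listed for 13 of the 17 genes, which hold 21 of the 27 peaks. Of these 21, 7 lay upstream (33.3%) and 14 downstream of the nearest listed start, and 3 (14.3%) were within 1 kb of it. Over the 2363 peaks given to any coding gene with a listed start, 33.7% lay upstream and 11.7% within 1 kb, so the members were near the background in both. The member peaks within 1 kb were those at Cd27 (695 bases upstream), Cd47 (612 bases upstream) and Cd84 (826 bases downstream). The 250 bases before these 3 starts are shown because they are the Cd starts closest to a peak (RefSeq, GRCm38.p6, 5′ to 3′ on the strand of the gene). The peaks themselves lay beyond these windows, and no base is shared.
Cd27, chr6:125237028-125237277, minus strand: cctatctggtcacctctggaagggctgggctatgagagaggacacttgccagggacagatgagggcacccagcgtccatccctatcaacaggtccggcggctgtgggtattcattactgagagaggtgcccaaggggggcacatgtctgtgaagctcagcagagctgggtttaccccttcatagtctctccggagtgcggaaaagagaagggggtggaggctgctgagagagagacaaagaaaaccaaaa
Cd47, chr16:49855404-49855653, plus strand: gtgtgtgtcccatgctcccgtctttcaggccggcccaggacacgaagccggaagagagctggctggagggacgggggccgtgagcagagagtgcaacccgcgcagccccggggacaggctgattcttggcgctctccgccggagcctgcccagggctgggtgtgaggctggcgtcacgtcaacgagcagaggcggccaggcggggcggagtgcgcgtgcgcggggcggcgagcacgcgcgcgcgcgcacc
Cd84, chr1:171839447-171839696, plus strand: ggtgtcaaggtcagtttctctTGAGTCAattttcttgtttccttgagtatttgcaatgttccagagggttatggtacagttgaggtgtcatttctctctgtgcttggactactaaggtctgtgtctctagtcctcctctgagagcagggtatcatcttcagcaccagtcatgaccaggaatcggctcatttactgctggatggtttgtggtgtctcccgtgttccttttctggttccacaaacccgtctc
The capitals in the Cd84 stretch mark the AP-1 word on its other strand, and the stretches of Cd27 and Cd47 hold none of the 11 words. The 73 Cd genes with listed starts have 81 windows in the table. The 3 PAR bZIP words were in 0 of them, against 1.22% of all windows, a share too low for 0 of 81 to stand apart. The C/EBP and CREB words were also in 0, against 0.18% and 1.79% of all windows. The AP-1, E-box and RUNX words were each in 6 of the 81, against 5.20%, 7.15% and 5.27%. The PU.1 word was in 10 of the 81, against 3.20% of all windows, the GATA word in 14 of the 81, against 11.2%, and the ETS word in 32 of the 81, against 23.8%. None of these differences was tested. Some of these windows belong to related neighbouring genes and are not independent.

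Among antigens of stem and progenitor cells and of adhesion, 3 of 14 genes had a peak. This was 21.4%, against 11.1% of all coding genes, in a small group and without a test. Cd34 encodes a sialomucin used to mark progenitors. It had 1 peak (chr1:194977487-194977886), outside the gene and 38.9 kb downstream of its start. The peak lay 16.4 kb from Cd34 and 61.3 kb from Cd46, the next nearest coding gene, which encodes a complement regulator. Cd93 encodes a C-type lectin-like receptor found on early B progenitors and other blood cells. It had 2 peaks, on opposite sides of its 6.89 kb, at 8.01 kb (chr2:148428440-148428839) and 45.5 kb (chr2:148488881-148489280). Cd47, whose protein tells macrophages through SIRP alpha not to engulf the cell, had 3 peaks around its 61.2 kb. One was inside the gene (chr16:49854843-49855242), 3.71 kb from its lower end but close to both listed starts. Another lay 14.4 kb outside on the upstream side (chr16:49836771-49837170), and the last 69.8 kb beyond the other end (chr16:49982131-49982530). The other 11 genes of this group, among them Cd44, Cd164 and Cd200, had none.

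The tetraspanins, which cross the membrane repeatedly and organise other surface proteins, had 5 peaks at 2 of 7 genes. These genes were 28.6% of a very small group, against 11.1% of all coding genes, and the difference was not tested. Cd9, a tetraspanin of stem cells and megakaryocytes, had the most peaks of any Cd gene. Of its 4 peaks, 2 were inside the 34.5 kb gene and 2.95 kb apart. One is the peak of the sequence above, 12.8 kb downstream of the start, and the other lay at 9.85 kb (chr6:125484711-125485110). One more was 15.3 kb upstream (chr6:125509813-125510212), and the last 34.4 kb beyond the other end of the gene (chr6:125425640-125426039). The next nearest coding genes to these outer peaks were Vwf at 42.9 kb and Plekhg6 at 44.2 kb. Cd82, a tetraspanin also found on stem cells, had 1 peak (chr2:93459009-93459408), inside the gene and 2.64 kb downstream of the nearest of its 4 listed starts. Cd37, Cd53, Cd63, Cd81 and Cd151 had none.

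Antigens of T and NK cells had 8 peaks at 5 of 21 genes, and 4 of these peaks belonged to the SLAM receptors. The share of genes with a peak was 23.8%, against 11.1% of all coding genes, and the difference was not tested. SLAM receptors are immunoglobulin-family molecules of blood cells that mostly bind their own kind, and CD48 is used to separate stem cells from other LSK cells. Cd84 had 3 peaks toward its start, 11.9 kb upstream (chr1:171827627-171828026), 0.826 kb downstream (chr1:171840324-171840723) and 10.04 kb downstream (chr1:171849541-171849940). Cd48 had 1 peak, 7.54 kb upstream of its start (chr1:171674253-171674652). Cd244a encodes the receptor for CD48 and had none, and its closest peak, 75.3 kb away, was given to Slamf7, another SLAM gene. Slamf1, Slamf6 and Ly9, further SLAM genes of the same locus without a Cd name, had 0 peaks. Their closest peaks were 26.6, 67.7 and 53.2 kb away.

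Cd27, a TNF receptor family member that binds CD70, had the peak closest to a gene end of all Cd genes (chr6:125237523-125237922). This peak also lay inside the noncoding gene E130112N10Rik, and Tapbpl, the next nearest coding gene, was 5.86 kb away. Cd69, an early activation antigen of the C-type lectin family, had 2 peaks that were 2.30 kb apart (chr6:129231543-129231942 and chr6:129233839-129234238). They were 35.6 and 33.3 kb outside the gene, and Clec2d was the next nearest coding gene at 45.2 and 47.5 kb. Cd6, a scavenger receptor family antigen of T cells, had 1 peak inside the gene, 11.9 kb from its lower end (chr19:10801049-10801448). Its neighbour and relative Cd5 had none. The genes of the T cell receptor complex (Cd3d, Cd3e, Cd3g and Cd247) and of its coreceptors (Cd4, Cd8a and Cd8b1) had none either.

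**Figure D2:**
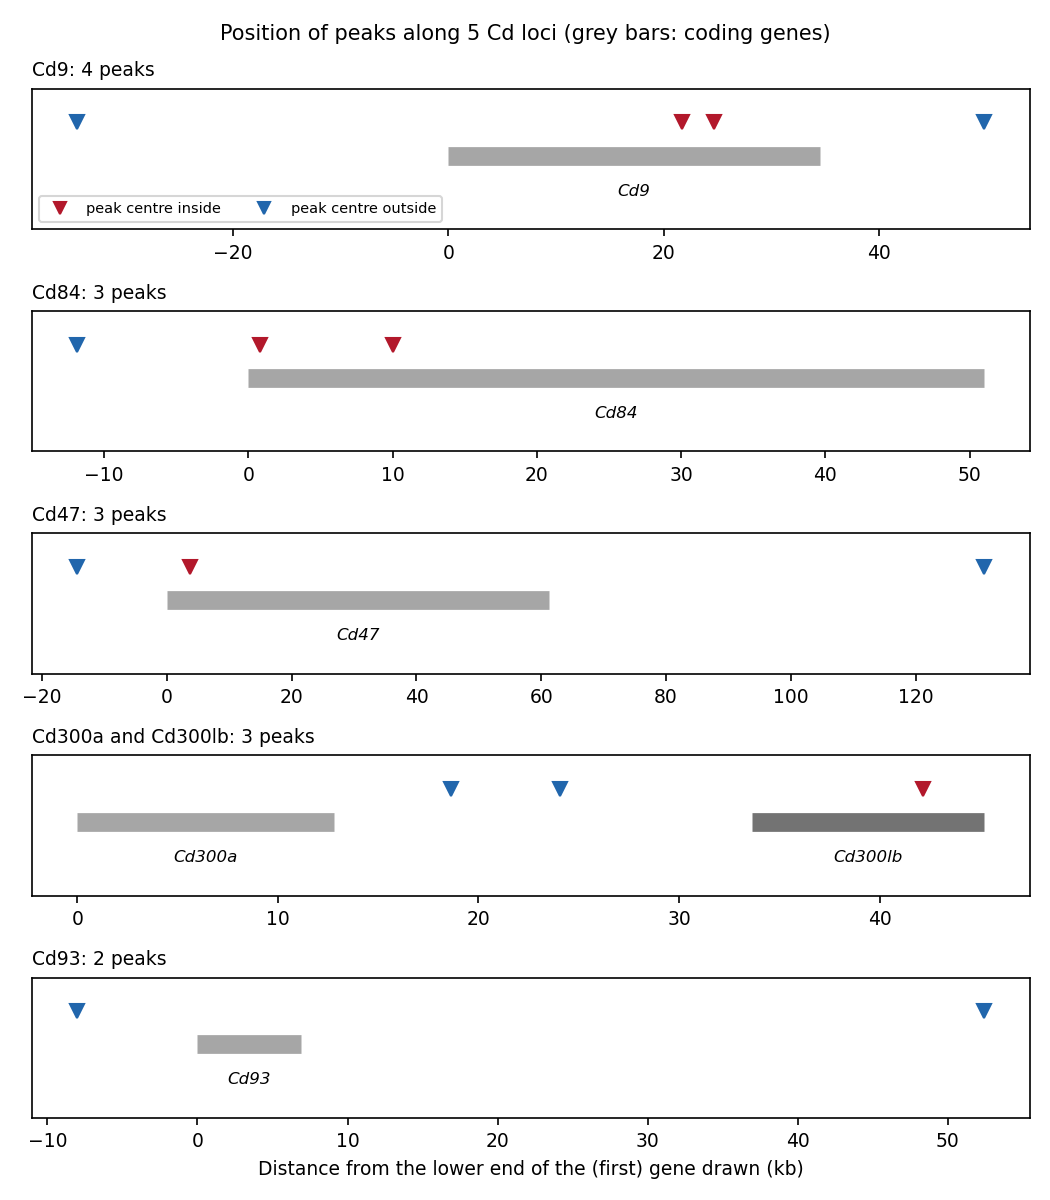
Peaks (triangles, red with centre inside and blue with centre outside the gene) along 5 loci, against the distance in kb from the lower end of the first gene drawn (grey bars are coding genes of the set, and each panel has its own scale). Cd9 and Cd93 have peaks on both sides, the peaks of Cd84 gather toward its start, and 2 peaks lie between Cd300a and Cd300lb.

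Antigens of B cells and antigen presentation had 1 peak at each of 3 of 16 genes. That is 18.8% of the group, against 11.1% of all coding genes, and the difference was not tested. Cd38, an enzyme of the cell surface that consumes NAD, had its peak inside the gene, 13.7 kb downstream of its start (chr5:43882263-43882662). Cd276, which encodes the B7 family member B7-H3, had one 17.1 kb downstream of its start, also inside (chr9:58537702-58538101). Cd74 encodes the invariant chain of MHC class II. Its peak lay outside, 11.7 kb from Cd74 and 13.6 kb from Rps14, so this assignment rests on a small difference (chr18:60791956-60792355). The B cell receptor genes Cd79a and Cd79b, the gene of the inhibitory receptor Cd22, and Cd80 and Cd86, which encode ligands of CD28, had no peak.

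Myeloid receptors were the largest group, and 4 of its 34 genes (11.8%) had a peak, near the 11.1% of all coding genes. Cd33, a Siglec receptor for sialic acid, had 1 peak 12.9 kb upstream of its start (chr7:43545893-43546292). The Cd300 family, a set of activating and inhibitory immunoglobulin-like receptors, had 3 peaks at 2 of 12 genes. Cd300lb had 1 peak inside, 3.08 kb downstream of its start (chr11:114931088-114931487), and 1 outside at 9.55 kb (chr11:114913031-114913430). Cd300a had 1 outside at 5.82 kb (chr11:114907571-114907970). The outer peaks of both genes lay in the stretch between them, 5.46 kb apart, and the one given to Cd300lb was 11.3 kb from Cd300a. Cd200r3, of the family of receptors for CD200, had 1 peak deep inside its 114.8 kb, 81.9 kb from its start (chr16:45025408-45025807). The 3 other Cd200 receptor genes and all 7 Cd209 genes, which encode lectins related to DC-SIGN, had none.

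**Figure D3:**
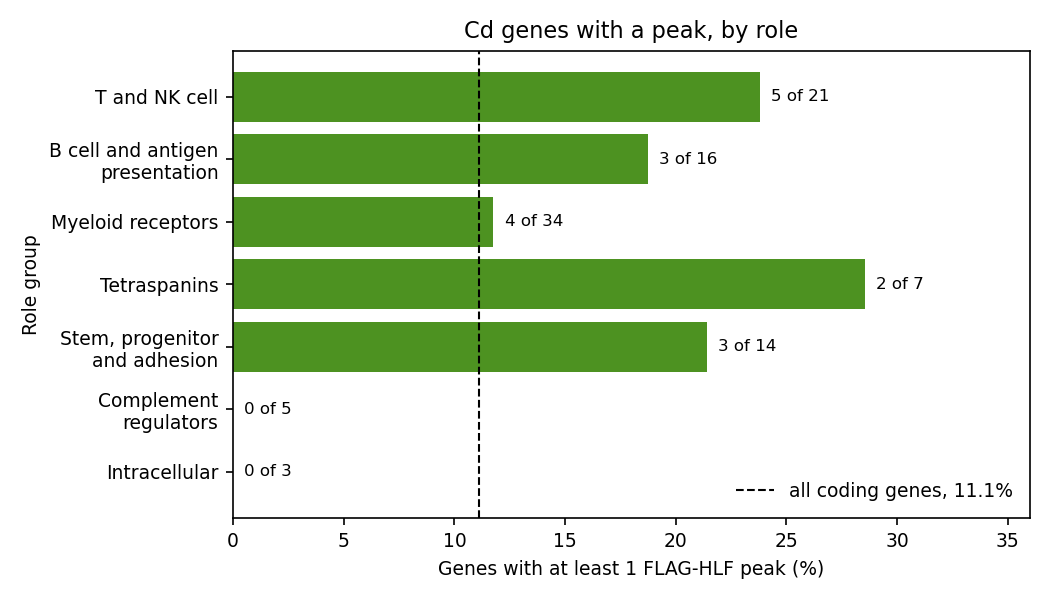
Percent of the genes in each role group with at least 1 FLAG-HLF peak (bars, with the number of genes beside each), with the 11.1% of all coding genes as a dashed line. The T and NK cell group has 5 of 21 genes with a peak and the myeloid group 4 of 34, while both small groups at the bottom have 0.

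No peak was given to the 5 complement regulators (Cd46, Cd55, Cd55b, Cd59a and Cd59b). The 3 genes for intracellular proteins named after a surface antigen (Cd2ap, Cd2bp2 and Cd3eap) had none either. With 11.1% of all coding genes having a peak, both groups are too small for the lack of a peak to stand apart. The difference was not tested. Cd55 and Cd55b also share their closest peak, as do Cd59a and Cd59b, so these pairs are not independent. Of the 83 genes without a peak, Cd99 has no chromosome position in the table that can be set against peaks. For the other 82 the distance from the gene to the closest peak of any gene had a median of 93.8 kb. It was within 100 kb for 44 and beyond for 38. Cd68, a glycoprotein of macrophage lysosomes, was the closest at 5.27 kb, with the peak inside Eif4a1. Then came Cd4 at 10.4 kb (peak given to Lag3), Cd2bp2 at 13.2 kb (inside Mylpf), Cd14 at 16.02 kb (given to E230025N22Rik) and Cd22 at 22.5 kb (given to Ffar3). The farthest was Cd226, an activating receptor of T and NK cells, with no peak within 4225 kb. Over all 99 placed Cd genes the median distance to the closest peak was 72.9 kb, against 178.8 kb over 21761 placed coding genes. The rule used these positions, so this difference is a description as well.

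**Figure D4:**
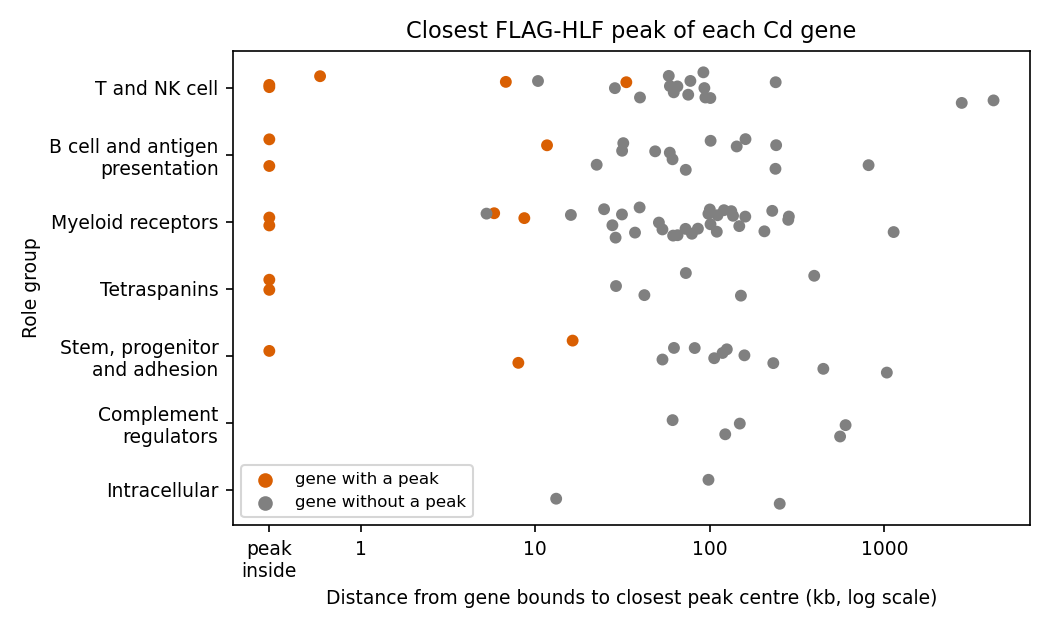
Distance in kb (log scale) from the bounds of each placed Cd gene to the closest peak centre, by role group, with orange points for genes that were given a peak and grey points for those without. Genes that hold a peak centre stand at the left edge, and many grey points lie around 100 kb.

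Several of the peaks also lay at noncoding genes. Of the 27 peak centres, 8 were inside one (29.6%), against 11.1% of the 2994 peaks given to any coding gene. The difference was not tested. These 8 were not all separate loci, since they include all 3 Cd47 peaks and both inner Cd9 peaks. The inner Cd9 peaks were inside Gm28809, and the peak upstream of Cd9 was 182 bases from an end of Gm26728, another long noncoding RNA gene. The peak given to Cd34 was 727 bases from an end of Gm16897. The inner Cd47 peak was 4 bases from an end of Gm4633. The Cd69 peaks were 881 and 1415 bases from an end of 2310001H17Rik. When noncoding genes entered the assignment, 10 Cd genes kept 13 peaks. Noncoding here means every RefSeq gene not marked protein-coding, so pseudogenes and tRNA genes count as well. Cd9, Cd27, Cd34, Cd47, Cd48, Cd69 and Cd74 then had none. The peak of Cd74 was 9479 bases from the pseudogene Gm8731, and that of Cd48 was 4941 bases from the tRNA gene n-THatg1. By that assignment 8.78% of all coding genes had a peak.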

How the data were processed

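DNA bound by FLAG-tagged protein was sequenced in 1 FLAG-HLF and 1 GFP-ctrl library of mouse LSK cells. The deposited list holds 3153 peaks as positions alone, each 400 bases wide. Bowtie2, bedtools, MACS2 and mm10 (GRCm38) are named without role or version, per the submitters' processing notes. The sources used here do not give the peak threshold or say whether GFP-ctrl was the background.

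Gene bounds were those of RefSeq on GRCm38.p6 (49997 genes, 21900 protein-coding), and start sites and sequences were from RefSeq windows of 250 bases before to 50 after a start, which cover 73 of the 100 Cd genes. A peak's centre is its start plus 200. When several coding genes held it, the nearest end decided. Peak sequence outside these windows was not used here. The assignment was checked on simulated peaks against a second coding of the same rule, which tests the code and not the choice of gene. Members and role groups (by textbook function) were chosen with earlier results of these data known. Every Cd gene with a peak is named, plus the 5 without one closest to a peak. The named relatives and neighbours were added after their values were seen. No test was made. The alternatives were other distance limits, other genes, other points of the gene and other assignments. Python 3.11.15, numpy 2.4.6, pandas 2.3.3 and matplotlib 3.10.9 were used.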

Additional observations from a re-analysis of the deposited data

How the results depend on the processing

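The counts of Cd genes with a peak (17), of their peaks (27), of genes with 2 or more peaks (6) and of peaks inside the gene (11) were recomputed under 7 alternatives, and 25 of the 28 values stayed within 1.5 times the reported one. The other 3 came from including noncoding genes, which gave 10 genes, 13 peaks and 2 genes with 2 or more peaks. A peak inside a coding and a noncoding gene then went to the one with the nearer end. With a limit of 20 kb, 16 of the 17 genes remained and Cd69 was lost. The same limit lowered the peaks from 27 to 22 and the genes with 2 or more peaks from 6 to 4. Without a limit Cd24a was added, and with distances to listed starts Cd40 was added, where genes with no listed start kept their nearest end. No paired analysis was possible because there is 1 library per arm and only 1 list was analysed. Without peak heights or read counts, a stricter threshold could not be applied and no detection limit can be given.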

Other observations

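For some Cd genes without a peak, the closest peak had been given to a neighbour with a related role. These pairs were picked out after the values were seen. The peak closest to Cd274, which encodes PD-L1, lay 32.0 kb from it and inside Pdcd1lg2, which encodes PD-L2, the other ligand of PD-1. The peak closest to Cd4 was 5.73 kb outside Lag3, whose protein also binds MHC class II. The peak closest to Cd28 was 92.0 kb from it and 43.7 kb outside Ctla4, which encodes an inhibitory receptor for the same ligands. For the tetraspanin gene Cd81 the closest peak lay 29.1 kb away and 4.21 kb outside Tspan32, another tetraspanin gene. For Cd70, a TNF family ligand, it lay 48.7 kb away and 4.29 kb outside Tnfsf14, a further ligand of that family. For Cd209a it lay 31.4 kb away and inside the lectin gene Clec4g. Related genes often lie side by side, and how often such pairs arise over all genes was not counted.

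The order of lines in the file is not explained in the sources used here. The 27 peaks of Cd genes stood between lines 30 and 2732, and 2 of them were in the first 315 lines, namely the peak upstream of Cd9 (line 30) and the one upstream of Cd84 (line 189).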
